A study of Mus musculus with 3 samples.

Results

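The interferon-gamma inducible GTPases are described here across the cells of mouse Peyer's patch (PP) blood vessels. The 10 members were chosen by symbol and are Gbp2, Gbp3, Gbp4, Gbp6 and Gbp7 of the guanylate-binding proteins and Irgm1, Irgm2, Igtp, Iigp1 and Tgtp2 of the immunity-related GTPases. All 10 were found among the 31053 genes of the single-cell files.

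Single-cell RNA of sorted PP endothelial cells (EC) was profiled by droplet-based 3′ sequencing in 3 libraries. The control library is labelled WT, of strain C57BL/6. The EC-iCOUP_OE libraries, replicates 1 and 2, are from CDH5(PAC)CreERT2;COUP-TFIIOE/OE mice, in which a tamoxifen-activated Cre driven by the endothelial Cdh5 promoter switches on a COUP-TFII (Nr2f2) transgene. All mice were 6 to 10 weeks old, and cells were isolated 14 to 19 days after tamoxifen with males and females processed together. The mix of sexes differed between the libraries. Of the blood EC whose sex could be called, 1732 were female and 113 male in the control library. Replicate 1 held 1348 and 874, and replicate 2 held 493 and 169. The number of mice in each library is not given in the sources used here. With 1 control library no test across mice was possible, so genotype, strain and library cannot be told apart, and every interval below covers counting error only.

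Both GTPase families are part of cell-autonomous immunity. Interferon gamma acts through its receptor and the JAK kinases on genes whose promoters hold gamma-activated sequences (GAS), while IRF factors and the interferon-stimulated factor ISGF3 bind interferon-stimulated response elements (ISRE). Guanylate-binding proteins coat and help to break open vacuoles of intracellular bacteria and parasites. The immunity-related GTPases include effectors that attack such vacuoles (Iigp1, Tgtp2) and regulators that keep the effectors off the cell's own membranes (Irgm1, Irgm2, Igtp). Endothelial cells carry the interferon gamma receptor and are known to express both families.

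The members lie in gene clusters on few chromosomes (GENCODE vM21, GRCm38). Gbp7 (chr3:142530342-142550149), Gbp3 (chr3:142560026-142573209) and Gbp2 (chr3:142620602-142638008) lie together on the plus strand, and Gbp4 (chr5:105115767-105139586) and Gbp6 (chr5:105270702-105293698) lie together on the minus strand. Irgm1 (chr11:48861968-48871683) and Tgtp2 (chr11:49057194-49064206) are on the minus strand. Igtp (chr11:58199556-58207591) lies almost wholly within the annotated span of Irgm2 (chr11:58199618-58222782) on the same strand, so reads from sequence that both genes share are not counted for either and their values are uncertain to that extent. Iigp1 is on chromosome 18.

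Reads of some members cannot be told from those of near-identical copies. Of the 100-base windows in the last 500 bases of the longest coding transcript, 401 of 401 of Tgtp2 occur unchanged in a transcript of Tgtp1 (chr11:48985327-48994172). For Gbp6, 259 of 401 windows (64.6%) occur in Gbp10 or Gm43302. The other 8 members shared 0 of 401 windows with any other gene. The values of Tgtp2 and Gbp6 are therefore uncertain as to the copy.

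The promoters show the interferon motifs that the family is known for. The 110 bases upstream of the start are printed for 7 of 10 members and for Tgtp1 from RefSeq (GRCm38.p6), 5′ to 3′ on the strand of the gene, with ISRE (GAAA, any 2 bases, GAAA, on either strand) and GAS (TTCNNNGAA) matches in capitals. They are shown because these elements are the link between interferon signalling and the family.
Gbp2 (chr3:142620553-142620662, plus strand): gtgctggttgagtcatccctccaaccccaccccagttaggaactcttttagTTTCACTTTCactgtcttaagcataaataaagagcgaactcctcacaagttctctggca
Gbp3 (chr3:142559934-142560043, plus strand): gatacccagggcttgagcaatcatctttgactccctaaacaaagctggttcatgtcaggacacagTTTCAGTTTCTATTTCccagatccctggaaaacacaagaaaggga
Gbp7 (chr3:142530226-142530335, plus strand): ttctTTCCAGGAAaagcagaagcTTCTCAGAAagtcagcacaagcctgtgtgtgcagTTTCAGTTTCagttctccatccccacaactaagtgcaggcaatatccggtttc
Irgm1 (chr11:48871421-48871530, minus strand): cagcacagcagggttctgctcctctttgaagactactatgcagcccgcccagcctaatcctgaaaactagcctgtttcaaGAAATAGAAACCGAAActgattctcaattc
Irgm2 (chr11:58214867-58214976, plus strand): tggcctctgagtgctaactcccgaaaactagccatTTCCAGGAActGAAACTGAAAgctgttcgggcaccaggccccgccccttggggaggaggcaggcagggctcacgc
Igtp (chr11:58199446-58199555, plus strand): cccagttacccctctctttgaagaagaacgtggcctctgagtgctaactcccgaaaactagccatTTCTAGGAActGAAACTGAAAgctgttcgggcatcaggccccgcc
Tgtp2 (chr11:49064213-49064322, minus strand): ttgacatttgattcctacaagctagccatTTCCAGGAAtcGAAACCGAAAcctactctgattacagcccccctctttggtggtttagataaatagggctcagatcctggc
Tgtp1 (chr11:48992247-48992356, minus strand): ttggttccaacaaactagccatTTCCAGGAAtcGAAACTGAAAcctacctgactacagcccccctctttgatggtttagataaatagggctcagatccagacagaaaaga

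Within 250 bases upstream of the start, all 7 members with a promoter sequence held an ISRE match, which 2.98% of 32851 RefSeq promoters of the same length did. GAS matches were found in 4 of 7 members (Gbp7, Irgm2, Igtp, Tgtp2) and in 7.02% of all promoters. In Irgm2, Igtp, Tgtp2 and Tgtp1 the GAS match stood 2 bases before the ISRE match. In Gbp3 and Irgm1 a pair of ISRE matches overlapped, and the second Gbp3 start in the table held no match. A match is a description of letters and not of a bound site.

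The overexpressed gene was checked in every library first. In blood EC, Nr2f2 stood at 117 UMIs per 1000000 UMIs of the cells (CPM) in the control library, 1697 CPM in EC-iCOUP_OE replicate 1 and 1164 CPM in replicate 2. In PP capillary EC, which hardly express it in the control library (11 UMIs in 766 cells, 8.77 CPM), the values were 2050 and 1141 CPM. Nr2f2 RNA was thus higher in both EC-iCOUP_OE libraries, and the counts do not tell transgene from endogenous transcripts.

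The libraries held 17341398 UMIs (control), 17417260 UMIs (replicate 1) and 3548983 UMIs (replicate 2), and after filters and removal of doublets 2474, 3509 and 995 blood EC remained. Blood EC carried Pecam1 at 852 to 1055 CPM and Cdh5 at 447 to 593 CPM. The control library also held 2487 fibroblasts, against 8 and 4 in the others. In blood EC the 7 fibroblast markers summed to 96.4 CPM in the control library and to 0.908 and 8.58 CPM in replicates 1 and 2, all 7 being at least 2-fold lower in both. The 5 epithelial markers summed to 1.24, 130 and 77.6 CPM, with 1 of the 5 at least 2-fold higher in both. Replicate 1 shares no cell barcode with the other libraries and was processed with a later Cell Ranger version, whereas the control library and replicate 2 share 12 barcodes. The gene list of replicate 1 also lacked CreERT2 and TdTomato. The control library and replicate 2 listed both, with 0 UMIs of each. The part of these differences in the results was not tested. EC subsets were named from marker genes: PP capillary EC, capillary resident progenitors (CRP), lamina propria (LP) capillary EC, arterial EC, postcapillary venule EC (PCV), high endothelial cells (HEC) and dividing EC, where each name stands for cells like that subset. The genotypes lay mostly in different clusters of a subset. Of PP capillary EC, cluster 0 held 25 control, 788 replicate 1 and 326 replicate 2 cells, and cluster 6 held 444, 67 and 51. Of arterial EC, cluster 3 held 5 of 552, 576 of 797 and 153 of 262 cells. Cyp1a1, Enpp6 and Slc6a6 led cluster 3, with 1 arterial marker (Stmn2) among its 10 leading genes. Cluster 4 had 5 such markers there and cluster 10 had 0. The mean log2 ratio of the arterial markers to other blood EC was 0.444, 3.02 and 1.57 in clusters 3, 4 and 10. Arterial EC values of both EC-iCOUP_OE libraries thus rest mostly on cluster 3, those of the control library on cluster 4. PCV (clusters 1 and 9) had none of the 7 PCV markers used here among the 10 leading genes of either cluster and were named by the mean of those markers alone. Selp, which encodes P-selectin and was not on that list, led cluster 1. Cluster 2 (194, 514 and 27 cells) was nearest to PCV but had Lyve1, a lymphatic marker, and Ccl21a, a HEC marker, among its leading genes, so it was left unnamed and counted only in blood EC.

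In the control library, the GTPases together were highest in PCV and lowest in fibroblasts and glia. Their summed level was 1702 CPM in PCV (95% interval 1628 to 1779, 380 cells) and 1111 CPM in PP capillary EC (1054 to 1171, 766 cells). CRP, LP capillary EC, arterial EC, HEC and dividing EC followed from 880 down to 715 CPM, each with an interval that overlapped that of the next class. Pericytes and smooth muscle cells, the contractile cells around vessels, stood at 568 CPM (500 to 643), also overlapping dividing EC. Glia and fibroblasts stood at 350 and 349 CPM and could not be told apart.

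PCV came first in both EC-iCOUP_OE libraries too, with 1311 CPM in replicate 1 and 2601 CPM in replicate 2. PP capillary EC held 1022 and 2007 CPM. Lymphatic cells, which carried Prox1 at 468 and 383 CPM, were found only in these 2 libraries (922 and 127 cells, 0 in control). Their summed GTPase level was 1115 CPM in replicate 1 and 1124 CPM in replicate 2 (log2 ratio 0.01, -0.16 to 0.18). Lymphatic cells lay between PCV and PP capillary EC in replicate 1 and below PP capillary EC in replicate 2, where their interval overlapped that of CRP.

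**Figure D1:**
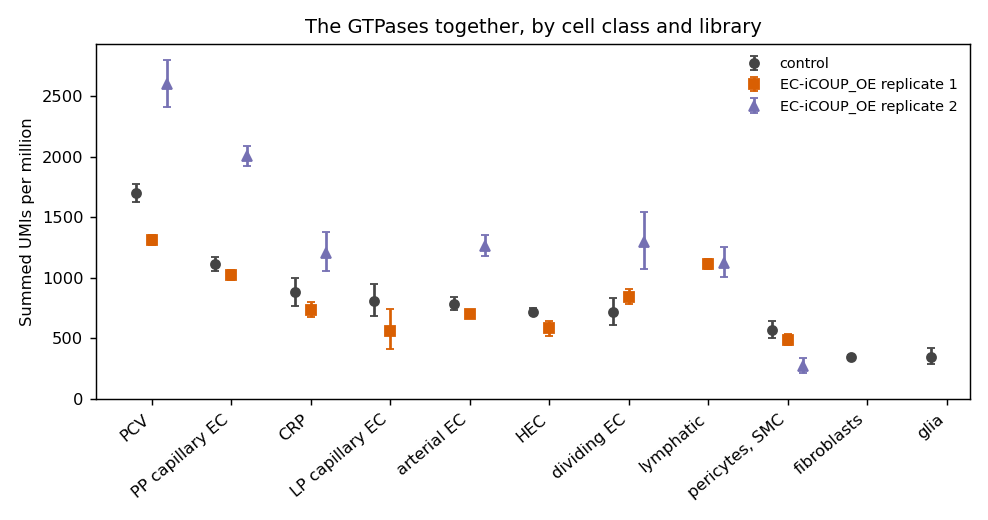
Summed CPM of the 10 GTPases (vertical axis) in the vascular classes, fibroblasts and glia, where a library held at least 20 cells, with points for the 3 libraries and bars for exact 95% Poisson intervals. In PCV, PP capillary EC and arterial EC replicate 2 lies above the control library and replicate 1 below it. In pericytes replicate 2 is the lowest at 272 CPM. The sum is weighted by the members with the most UMIs and does not stand for each member.

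The order of classes in the control library differed between members. Iigp1, an effector GTPase that loads onto pathogen vacuoles, stood at 724 CPM in PCV (676 to 775), 335 CPM in PP capillary EC, 200 CPM in arterial EC and 39.2 CPM in glia. Gbp4, a guanylate-binding protein, went from 533 CPM in PCV through 341 CPM in PP capillary EC to 213 CPM in arterial EC, and stood at only 13.1 CPM in glia and 11.5 CPM in fibroblasts. Both were thus highest in PCV, beyond the counting error of the next class.

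Gbp7, Igtp and Gbp2 were not. Gbp7 was highest in CRP (164 CPM) and Igtp in PP capillary EC (79.8 CPM), but each interval overlapped that of the next class. Gbp2 was highest in glia (98.1 CPM, 66.2 to 140), with an interval that overlapped that of PP capillary EC (75.0 CPM).

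The genotypes were compared to see how the GTPases stood in EC that overexpress COUP-TFII. A gene was called where both EC-iCOUP_OE libraries lay at least 2-fold on the same side of the control library and 1 library or more held at least 50 UMIs. In blood EC, 2 of 10 members were called higher (Gbp6 and Irgm2) and 1 lower (Gbp4). Gbp6 (18, 106 and 27 UMIs) met the floor only through replicate 1, where it was high, so its call alone does not support a rise. Over all 10284 genes tested, 4.72% were called higher and 2.42% lower. The median log2 ratio of the members was 0.35 in replicate 1 and 1.10 in replicate 2, beside 0.16 and 0.02 over all genes. Within subsets the medians of the 9 members tested were -0.04 and 0.32 in PP capillary EC (all genes 0.04 and -0.12), -0.04 and 0.30 in arterial EC (0.04 and -0.15) and 0.18 and 1.00 in PCV (0.06 and -0.18). Those of PP capillary and arterial EC were thus smaller than those of blood EC. Blood EC pool subsets whose shares differed between the libraries, with 355, 78 and 2 HEC, and control HEC held low levels of Gbp2 (18.7 CPM), Igtp (19.5 CPM) and Irgm2 (8.08 CPM). The part of these shares in the blood EC values was not tested. By direction alone, 9 of 10 members lay above the control library in both replicates and 1 (Gbp4) below it in both. Some of these ratios had intervals that included no change, and the share of all genes in these positions was not counted. The summed level is weighted by the members with the most UMIs. Gbp4 gave 2650 of the 8097 member UMIs of the control library and 1616 of the 12583 of replicate 1. The summed level went in opposite directions in the replicates. The control library held 1005 CPM, replicate 1 952 CPM (log2 ratio -0.08, interval -0.12 to -0.04) and replicate 2 1770 CPM (0.82, 0.76 to 0.87).

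**Figure D2:**
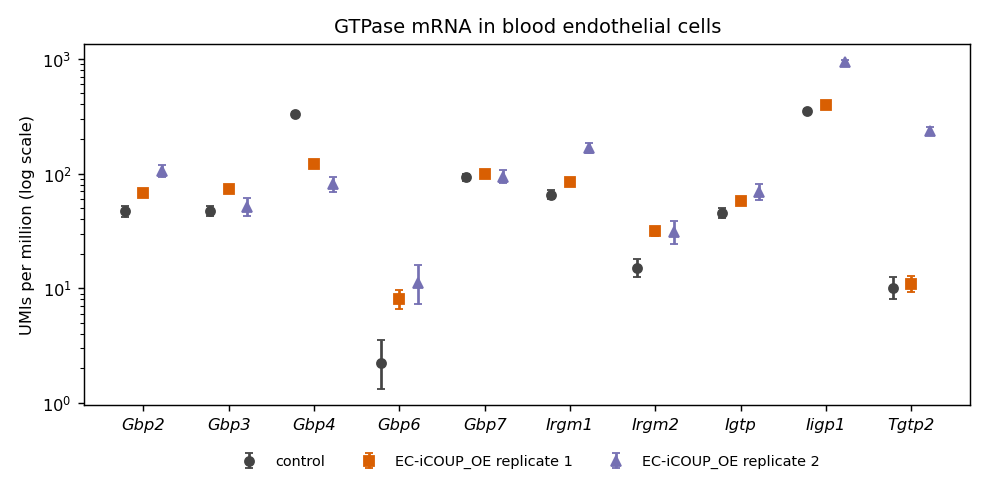
CPM of each GTPase in blood EC (log axis), with points for the 3 libraries and bars for exact 95% Poisson intervals. Gbp4 is at 329 CPM in the control library and at 122 and 80.5 CPM in replicates 1 and 2, and Tgtp2 stands apart in replicate 2 at 233 CPM.

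Gbp4 was the member that was lower in both EC-iCOUP_OE libraries. In blood EC it stood at 329 CPM in the control library (2650 UMIs), 122 CPM in replicate 1 (1616 UMIs) and 80.5 CPM in replicate 2 (197 UMIs). The log2 ratios were -1.43 (-1.52 to -1.34) and -2.03 (-2.25 to -1.82). Both libraries lay far below the control library, and replicate 2 below replicate 1. The share of cells with a Gbp4 UMI was 25.6%, 10.9% and 6.93%, with each cell thinned to 1000 UMIs, against 0.844% of control fibroblasts, which were sequenced at a median of 2755 UMIs a cell beside 2152 for control blood EC.

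Gbp4 stood below the control library in every class compared. The levels in PP capillary EC were 341, 127 and 93.3 CPM (log2 ratios -1.43 and -1.87). In PCV they were 533, 159 and 68.7 CPM (-1.75 and -2.96). In arterial EC they were 213, 115 and 81.3 CPM (-0.89 and -1.39), short of the 2-fold rule in replicate 1. Over the 9 blood EC clusters with at least 20 cells in every library the log2 ratio ran from -2.05 to -0.80 in replicate 1 and from -2.98 to -1.16 in replicate 2. In pericytes Gbp4 stood at 107 CPM (47 UMIs), 35.6 CPM (36 UMIs) and 3.49 CPM (1 UMI). In cells called female by Xist the blood EC levels were 322, 120 and 93.4 CPM, and in cells called male by Y-linked genes (113 in the control library) 406, 121 and 75.7 CPM, so Gbp4 was lower in both sexes.

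Gbp6 and Irgm2 were the members called higher, both at low levels. The 6 lymphatic markers moved with them in blood EC, at a sum of 31.2 CPM in the control library and 115 and 82.9 CPM in replicates 1 and 2, with 3 of the 6 at least 2-fold higher in both and none at 0. Lymphatic cells held Irgm2 at 80.9 and 34.2 CPM and Gbp6 at 12.6 and 20.5 CPM in these libraries. The part of lymphatic RNA in both values was not tested. Gbp6 stood at 2.24 CPM in control blood EC (18 UMIs), 8.02 CPM in replicate 1 (106 UMIs) and 11.0 CPM in replicate 2 (27 UMIs), with log2 ratios of 1.84 (1.11 to 2.65) and 2.30 (1.39 to 3.25). Irgm2, a regulator of the effector GTPases, stood at 15.0, 31.3 and 30.6 CPM, with log2 ratios of 1.06 (0.76 to 1.36) and 1.03 (0.59 to 1.46). Both intervals of Irgm2 reach below the 2-fold line, and Irgm2 was not called without the cell richest in it in each library, in female or in male cells alone, under TMM scaling, after thinning or in the clusters shared by the libraries. Gbp6 was under the UMI floor in the male cells (0 UMIs in control, 28 in replicate 1 and 5 in replicate 2) and in the thinned cells. It could not be called in either, so these runs do not test its call. In PCV Irgm2 stood at 23.4, 42.2 and 57.3 CPM (log2 ratios 0.85 and 1.29) and was not called. Its intervals included no change in PP capillary EC (19.9, 24.9 and 24.9 CPM) and arterial EC (18.3, 25.1 and 22.6 CPM).

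**Figure D3:**
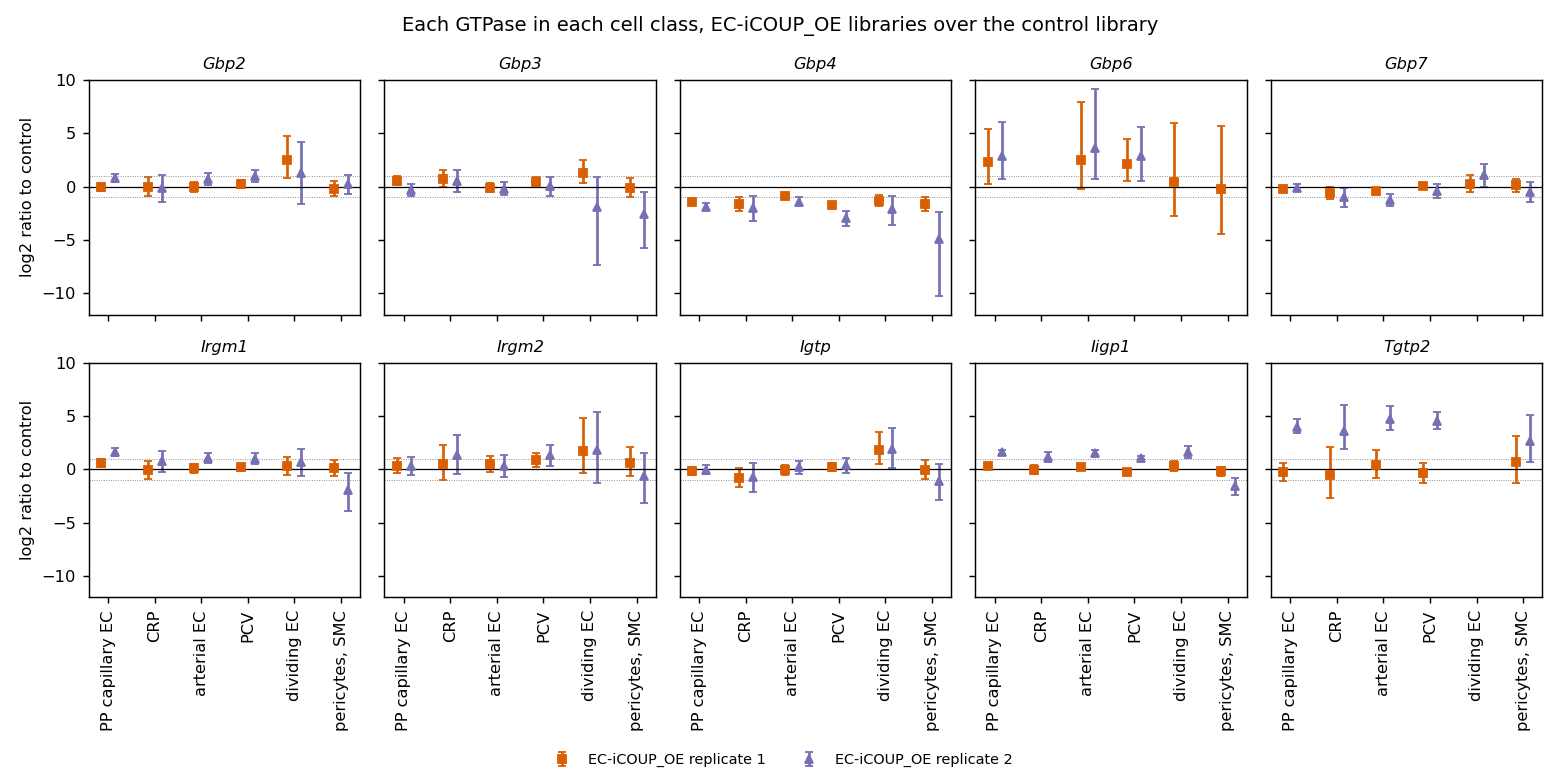
Log2 ratio of each EC-iCOUP_OE library to the control library (vertical axis) for each GTPase in 6 cell classes, with exact 95% counting intervals, a solid line at no change and dotted lines at 2-fold. Ratios with 0 UMIs in a library are not drawn. Gbp4 lies below the line in every class in both libraries, and Tgtp2 of replicate 2 lies above it.

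Between the EC-iCOUP_OE replicates, 7 of the 10 members differed by more than counting error. The share of all genes that did so was not counted, so this number cannot be read as particular to the GTPases. Tgtp2, Iigp1, Irgm1, Gbp2 and Igtp were higher in replicate 2, and Gbp3 and Gbp4 in replicate 1. Tgtp2, an effector GTPase, stood at 10.1 CPM in control blood EC (81 UMIs), 11.0 CPM in replicate 1 (145 UMIs) and 233 CPM in replicate 2 (571 UMIs). The log2 ratio to the control library was 0.12 (-0.28 to 0.54) in replicate 1 and 4.54 (4.20 to 4.89) in replicate 2. The control library and replicate 1 could not be told apart, whereas replicate 2 lay far above both. A Tgtp2 UMI was found in 1.09% of control, 1.08% of replicate 1 and 16.8% of replicate 2 cells after thinning, and in 0.161% of control fibroblasts. Tgtp1, its near-identical copy, stood at 10.6, 8.55 and 176 CPM. The summed UMIs of both copies differed between replicates 2 and 1 by a log2 ratio of 4.39 (4.19 to 4.59).

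The high Tgtp2 level of replicate 2 was found in each class measured. It was 280 CPM in PP capillary EC (17.5 in control, 14.3 in replicate 1), 173 CPM in arterial EC (6.67 and 8.76), 332 CPM in PCV (14.7 and 11.3) and 143 CPM in CRP (11.7 and 8.22). In lymphatic cells it was 85.4 CPM, against 10.1 CPM in replicate 1. In pericytes it was 41.9 CPM (12 UMIs), against 6.82 CPM in control (3 UMIs) and 10.9 CPM in replicate 1 (11 UMIs). Female and male cells of replicate 2 stood at 250 and 249 CPM, with overlapping intervals.

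Iigp1 was the member with the most UMIs and also stood highest in replicate 2. Blood EC held 352 CPM in the control library, 398 CPM in replicate 1 and 929 CPM in replicate 2, with log2 ratios of 0.18 (0.11 to 0.24) and 1.40 (1.32 to 1.48). A UMI of it was found in 25.0%, 28.6% and 43.4% of thinned cells, and in 10.8% of control fibroblasts. In PCV the levels were 724, 618 and 1555 CPM, so that replicate 1 lay below and replicate 2 above the control library, with log2 ratios of -0.23 (-0.35 to -0.11) and 1.10 (0.93 to 1.27). In lymphatic cells the replicates did not differ beyond counting error, at 362 and 338 CPM.

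Irgm1, the regulator best known for its part in autophagy, stood at 65.3, 83.6 and 166 CPM in blood EC (log2 ratios 0.36 and 1.34). Replicate 2 exceeded replicate 1 by a log2 ratio of 0.99 (0.82 to 1.15), and in PP capillary EC the levels were 63.8, 96.9 and 193 CPM. Within clusters 0, 5 and 6 of that class the log2 ratios of Irgm1 in replicate 1 were -0.45, 0.18 and -0.27. In replicate 2 they were 0.78, 0.28 and 0.91. The control library held 7 Irgm1 UMIs in cluster 0. Gbp2 stood at 46.8, 67.7 and 105 CPM (0.53 and 1.17), with replicate 2 above replicate 1 by 0.64 (0.43 to 0.84). Gbp2 of replicate 1 lay at a log2 ratio of -0.04 in both PP capillary EC and arterial EC, a difference from the control library that was not detectable at this depth.

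Gbp7, Igtp and Gbp3 stood within 2-fold of the control library in blood EC. Gbp7 stood at 93.0, 99.9 and 94.0 CPM in blood EC, with log2 ratios of 0.10 (-0.03 to 0.23) and 0.01 (-0.20 to 0.23), so a 2-fold change lies outside its intervals in both libraries. Igtp, the regulator also called Irgm3, stood at 45.2, 57.4 and 69.0 CPM, with log2 ratios of 0.34 (0.16 to 0.53) and 0.61 (0.34 to 0.88). Gbp3 stood at 47.1, 72.6 and 51.5 CPM (0.63 and 0.13), which put replicate 1 above the control library (0.45 to 0.80), whereas the interval of replicate 2 included no change (-0.17 to 0.42). In arterial EC Gbp7 of replicate 2 was lower than the control library, at 51.2 against 118 CPM (log2 ratio -1.21), while replicate 1 stood at 88.0 CPM.

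Calls by subset are given beside the share of all genes, and with at most 9 members tested a count of 0 lies near that share. In PP capillary EC 0 of 9 members tested were called higher and 1 lower (Gbp4), against 4.7% and 2.22% of 6091 genes. In arterial EC 0 of 9 were called in either direction, against 4.16% and 3.06% of 6105 genes. In PCV 0 of 9 were called higher and 1 lower (Gbp4), against 3.1% and 1.59% of 6604 genes, while Gbp6 (3, 36 and 5 UMIs) was under the 50 UMI floor. In CRP 0 of 3 were called in either direction, against 5.86% and 2.79% of 2475 genes. In dividing EC (23, 150 and 20 cells) 2 of 7 were called higher (Gbp2, Igtp) and 1 lower (Gbp4), against 9.67% and 1.61% of 2854 genes, with 3 UMIs of Gbp2 and 5 of Igtp in the control library. Gbp2 and Igtp met the 50 UMI floor only through replicate 1, where they held 62 and 65 UMIs, so these 2 calls do not support a rise. The interval of Gbp2 in replicate 2 (3 UMIs) ran from -1.65 to 4.15 and included no change. HEC and LP capillary EC were not compared, since replicate 2 held 2 and 3 cells of them.

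The summed level was also compared within the 9 clusters of blood EC with at least 20 cells in every library. In cluster 5 (PP capillary EC; 297, 140 and 141 cells) the sum stood at 1075, 827 and 1195 CPM. In cluster 1 (PCV; 273, 481 and 81 cells) it stood at 1706, 1443 and 2762 CPM, and in cluster 4 (arterial EC; 415, 136 and 48 cells) at 817, 707 and 1050 CPM. In the unnamed cluster 2 it stood at 1226, 899 and 1977 CPM. In cluster 10 (arterial EC; 132, 85 and 61 cells) it stood at 709, 505 and 571 CPM. In cluster 0 it stood at 1994, 1063 and 2352 CPM, in cluster 6 at 1074, 785 and 1474 CPM, in cluster 8 (CRP) at 880, 737 and 1209 CPM, and in cluster 11 (dividing EC) at 715, 843 and 1294 CPM. The sum of replicate 1 thus lay below the control library in all of the 9 clusters but cluster 11. That of replicate 2 lay above it in all but cluster 10. The sum is weighted by the members with the most UMIs. In replicate 1, Gbp4 lay above the control library in 0 of 9 clusters and Iigp1 and Gbp7 in 2 each. Irgm1 and Igtp lay above it in 4 each, Gbp2 in 5, and Gbp3 and Irgm2 in 7 each. Of the clusters with a ratio, Gbp6 lay above it in 6 of 6 and Tgtp2 in 2 of 7.

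In pericytes and smooth muscle cells (132, 220 and 91 cells) 0 of 4 members tested were called in either direction, against 2.34% and 1.76% of 3246 genes. Their median log2 ratios were -0.03 and -1.03 (all genes 0.07 and -0.13). The summed level was 568, 488 and 272 CPM, with log2 ratios of -0.22 (-0.44 to 0.01) and -1.06 (-1.45 to -0.69). Iigp1 stood at 177, 155 and 59.3 CPM and Irgm1 at 52.3, 56.3 and 14.0 CPM (4 UMIs), so that both were lowest in replicate 2, the library in which they were highest in blood EC. Endothelial transcripts in this class moved in the same direction, with Pecam1 at 423, 382 and 55.8 CPM and Cdh5 at 216, 247 and 24.4 CPM. Nr2f2 stood at 264, 1238 and 635 CPM. The part of endothelial RNA in the pericyte values was not tested.

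Members were spread over many cells. Among thinned blood EC, 56.5% of control, 55.2% of replicate 1 and 66.4% of replicate 2 cells had a UMI of at least 1 member, with a mean of 1.08, 0.973 and 1.71 member UMIs a cell. The tenth of cells with the most member UMIs held 39.7%, 38.4% and 38.5% of them. This share depends on the mean, so it does not compare the unevenness of the libraries. Cells with 5 or more member UMIs made up 3.19%, 1.68% and 9.05%. Pairs of members were found in the same cell more often than their separate frequencies give, at 1.41, 1.30 and 1.34 times the number expected if independent. Within PP capillary EC these values were 1.37, 1.33 and 1.30, and within lymphatic cells 1.54 and 1.82 in replicates 1 and 2. Within PCV they were lower, at 1.32, 1.13 and 1.10. In HEC of replicate 1 (0.88) and dividing EC of the control library (0.56, from 1 pair in 23 cells) pairs were no more frequent than expected.

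In EC-iCOUP_OE cells the GTPases were also set against Nr2f2 in the same cell. Among thinned PP capillary EC of replicate 1, cells without an Nr2f2 UMI held 870 CPM of the GTPases (754 to 999, 231 cells) and cells with 1 or more held 1076 CPM (1004 to 1152, 764 cells). In replicate 2 the values were 1544 CPM (1383 to 1718, 217 cells) and 2163 CPM (2000 to 2336, 301 cells). The sum was higher in cells with Nr2f2 in both, but not each member was. Iigp1 stood at 346 and 458 CPM in replicate 1 and at 756 and 1169 CPM in replicate 2. Irgm1 stood at 51.9 and 99.5 CPM, then 124 and 229 CPM, and Tgtp2 at 0 and 14.4 CPM, then 166 and 299 CPM. The intervals of Iigp1 and Tgtp2 lay apart in replicate 2 only, and those of Irgm1 overlapped in both replicates. Gbp3, Irgm2 and Igtp stood lower in cells with Nr2f2 in both replicates, and Gbp2 and Gbp4 in replicate 2. The intervals of all of these pairs overlapped, so no direction can be read from them. Of the cells with Nr2f2, 663 of 764 and 241 of 301 lay in cluster 0. Within it the sums were 968 and 1130 CPM in replicate 1 and 1988 and 2444 CPM in replicate 2, with intervals that overlapped, and in cluster 5 they were 805 and 762 CPM and 1174 and 1000 CPM. In arterial EC (699 and 762 CPM, then 1214 and 1293 CPM) and PCV (1269 and 1308 CPM, then 2091 and 2614 CPM) the intervals overlapped.

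**Figure D4:**
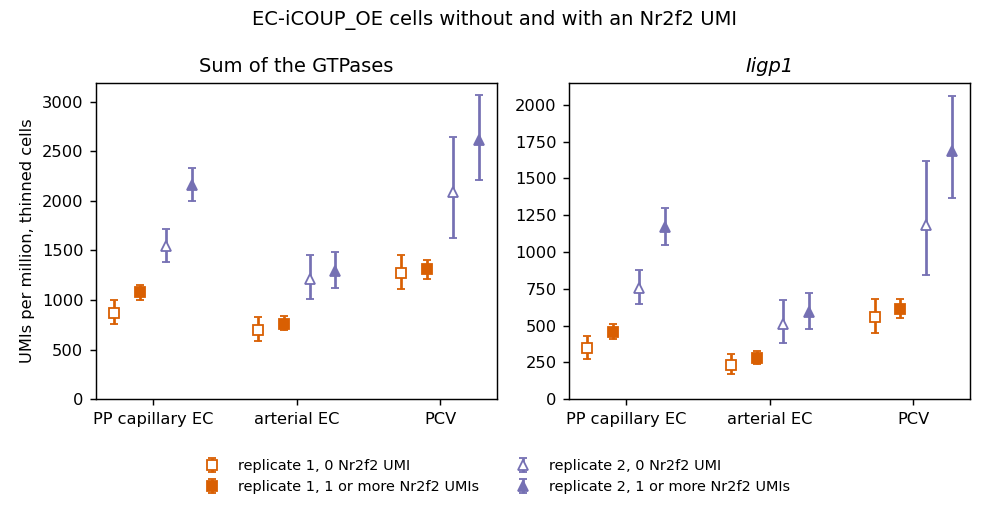
Summed CPM of the GTPases (left) and of Iigp1 (right) in thinned EC-iCOUP_OE cells with 0 (open) and with 1 or more Nr2f2 UMIs (filled), with exact 95% Poisson intervals. The sum is higher in cells with Nr2f2 in PP capillary EC of both replicates (870 and 1076 CPM, 1544 and 2163 CPM). The intervals overlap in arterial EC and PCV, and also within cluster 0 of PP capillary EC, which is not drawn.

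Other GTPases, mostly of both families, were measured alongside. The list also held Gvin1, Gm4070, Mx1 and Mx2, which belong to neither. In blood EC 4 of 11 tested were called higher (Gbp8, Gm4951, F830016B08Rik, Gm4070) and 1 lower (Gbp2b), against 4.72% and 2.42% of all genes. In PP capillary EC 2 of 7 were called higher and 1 lower, against 4.7% and 2.22% of all genes. In PCV it was 3 of 8 and 1, against 3.1% and 1.59%. In arterial EC it was 1 of 6 and 1, against 4.16% and 3.06%. The median log2 ratios of the list were 0.70 and 1.10 in blood EC but -0.51 and -0.27 in arterial EC. Gm4951, an immunity-related GTPase gene, stood at 23.5, 83.2 and 93.1 CPM. Gbp2b, the neighbour of Gbp2 on chromosome 3, stood at 46.8, 20.6 and 3.27 CPM, lowest in replicate 2, as Gbp4 was. Ifi47, another immunity-related GTPase, stood at 147, 170 and 232 CPM and was not called.

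The receptor and signalling genes upstream of the family showed 1 of 15 called higher and 0 lower in blood EC, against 4.72% and 2.42% of all genes. In PP capillary EC 2 of 13 were called higher (Socs1 and Socs3), against 4.7% of all genes. In PCV and arterial EC 1 of 14 and 1 of 11 were called higher (Socs1), against 3.1% and 4.16%. The receptor chains Ifngr1 (193, 261 and 212 CPM) and Ifngr2 (59.7, 58.2 and 35.1 CPM) were not called. Socs1, the feedback inhibitor of JAK signalling, was the gene called in blood EC, at 23.5, 91.0 and 116 CPM (log2 ratios 1.95 and 2.30). Irf1, an interferon-induced transcription factor that binds ISRE, stood at 303, 329 and 770 CPM, with replicate 1 near the control library and replicate 2 high, as for Iigp1. Interferon gamma itself was found in 2 UMIs of the whole control library and 0 of either EC-iCOUP_OE library, and Ifnb1 in 0 of all 3. Cells had been sorted for endothelium and only 17, 8 and 2 lymphocytes were kept, so these counts do not describe the whole tissue.

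Other interferon-gamma targets went in both directions in blood EC, with 3 of 18 called higher and 4 lower, against 4.72% and 2.42% of all genes. Cxcl10, a chemokine for activated T cells, stood at 215, 642 and 1277 CPM, and Serping1, the C1 inhibitor of complement, at 49.0, 242 and 257 CPM. Cd274, which encodes the checkpoint ligand PD-L1, stood at 6.08, 18.2 and 15.5 CPM. Ubd, a ubiquitin-like protein that also leads the HEC cluster, stood at 2293, 230 and 80.5 CPM, and the MHC class II genes Cd74, H2-Aa and H2-Eb1 were called lower, each at 37.9 CPM or below in the control library. The control library held 355 HEC against 78 and 2. In blood EC the 7 myeloid markers summed to 38.4, 5.45 and 5.31 CPM, with 1 of the 7 at least 2-fold lower in both EC-iCOUP_OE libraries and 2 at 0. The myeloid cluster itself (1, 22 and 0 cells) was led by Prss34 and Mcpt8, with no MHC class II gene among its 10 leading genes. The 8 lymphocyte markers summed to 26.3, 7.94 and 1.23 CPM, with 1 of the 8 at least 2-fold lower in both and 1 at 0. H2-Eb1, H2-Aa and Cd74 were among the 10 leading genes of the lymphocyte cluster. The part of any of these in these values was not tested. The peptide transporters and immunoproteasome subunits Tap1, Tap2, Psmb8, Psmb9 and Psmb10 were not called. B2m, the MHC class I light chain, differed between the replicates at 7564, 2414 and 7092 CPM.

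Type I interferon targets were called higher in 10 of 23 and lower in 0 in blood EC, against 4.72% and 2.42% of all genes, with median log2 ratios of 1.08 and 1.09 beside 0.16 and 0.02 over all genes. Ifit3, an antiviral tetratricopeptide protein, stood at 19.5, 184 and 119 CPM, and Isg15, a ubiquitin-like modifier, at 167, 352 and 428 CPM. Bst2, which tethers budding viruses, stood at 207, 614 and 451 CPM. In PP capillary EC 7 of 19 were called higher (4.7% of all genes), in PCV 5 of 19 (3.1%), in arterial EC 3 of 15 (4.16%) and in pericytes 2 of 9 (2.34%). The medians were 1.28 and 0.97 in PP capillary EC and 0.78 and 0.59 in PCV, but 0.05 and -0.16 in arterial EC and 0.76 and -0.03 in pericytes. The autophagy genes that help to place the GTPases on vacuoles (Atg3, Atg5, Atg7, Gabarap and others) were called in 0 of 12 in either direction in blood EC.

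Across 27 groups of cells (a class in a library with at least 20 cells), the genes most like the mean log2 level of the members were Sema6a and Lfng (Pearson r 0.90), Mall, Sema3f, Gpr4, Plk2, Yes1, Cyp26b1, Tspan9 and Abcc4 (0.83). These values are descriptive, since the groups share libraries and differ in depth. Each member is itself part of that mean, and a constant added to each CPM before the log damps members at low levels. With these limits, Iigp1 (0.89), Igtp (0.85) and Irgm1 (0.84) lay closest to the mean among the members and Gbp4 (0.40) farthest from it.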

How the data were processed

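Raw UMI counts per gene and cell were deposited by the authors for 1 control and 2 EC-iCOUP_OE libraries, made with Cell Ranger against mm10. The labels name version 3.0.2 for all, whereas the file header of replicate 1 gives 3.1.0. Barcodes under 500 genes or 1000 UMIs, or over 10% mitochondrial UMIs, were dropped, and doublets called by Scrublet (scanpy 1.11.5) were removed (132, 46 and 4 cells). Cells were clustered without the members (Seurat 5.3.0, 2000 variable genes, 30 components, Louvain resolution 1), first all cells and then blood EC, and clusters were named from marker lists. A cluster with more markers of another class than of its own among its 10 leading genes was left unnamed. How the lists were scored was settled after the clusters were seen, and the name of 1 cluster, first taken as PCV, was withdrawn after member values had been seen.

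UMIs were summed per class and library and divided by the class total (CPM, per 1000000 UMIs) with exact 95% Poisson intervals. Ratios have exact conditional intervals and shares Clopper-Pearson intervals, after thinning each cell to 1000 UMIs. PCR and sampling of cells are not covered. With 1 control library no test was made. A gene entered the counts where 1 library or more held 50 UMIs of it, classes with under 20 cells in a library were not compared, and a count of 0 was set to 3. The rule for naming took in the members, the genes of the lists used here and the 10 genes most like the members, and of the lists only examples, chosen after their values were seen, are named. The calling script was tested on simulated data. One gene of the signalling list is not reported here. The members, lists and markers were chosen with earlier results of these data known.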

Additional observations from a re-analysis of the deposited data

How the results depend on the processing

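Gbp4 stayed called lower in blood EC, PP capillary EC and PCV under every alternative run. In blood EC the count of members called higher (2) became 1 with TMM scaling, in female cells and without the cell richest in the gene. It also became 1 in the clusters shared by all libraries and with equal weight of those clusters, and 0 after thinning. Gbp6 was under the UMI floor after thinning and in male cells, so it could not be called there. In male cells the count stayed 2, but the genes were Gbp3 and Igtp, with 9 and 8 UMIs in 113 control cells. Both met the UMI floor only through replicate 1 (280 and 232 UMIs). Without one replicate it ran from 2 to 5, and the 5 called without replicate 1 were Gbp2, Irgm1, Irgm2, Iigp1 and Tgtp2. A single replicate meets the rule more easily, so the 4.72% of all genes called with both replicates is no measure for this count. The same holds for every count below that leaves out one replicate. For the other alternative runs the share of all genes called is not given here, so their counts show only which calls moved. In PP capillary EC, arterial EC and PCV the count called higher (0) became 1 with a floor of 10 UMIs. It ran from 0 to 3 without one replicate, the 3 without replicate 1 being Irgm1, Iigp1 and Tgtp2. In male PCV the count was 1 (Gbp2, with 2 UMIs in 21 control cells), and Gbp2 met the floor there only through replicate 1 (70 UMIs). In arterial EC the count called lower (0) became 1 in the shared clusters and with their equal weight, and ran from 0 to 2 without one replicate (Gbp4 and Gbp7 without replicate 1). In pericytes it became 1 with a floor of 10 UMIs, and ran from 0 to 1 without one replicate. The cause was not tested. The alternatives on shared clusters were chosen after seeing the data. TMM moved all log2 ratios in blood EC by -0.15 and -0.08. Of 601 single values 529 moved by less than the spread between replicates, 72 by more, and 0 changed sign with a call. Male pericytes were too few to compare, and lymphatic cells had no control cells. No paired analysis was possible because there is 1 control library and replicate numbers do not pair it with the others.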
